A study of Mus musculus with 16 samples.

Results

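The 10 genes described here are classic inflammatory mediators of obese fat: the cytokines Tnf, Il1b and Il6, the inflammasome sensor Nlrp3, the chemokines Ccl2, Ccl3, Ccl4 and Cxcl1, the acute phase protein gene Saa3 and the prostaglandin synthase gene Ptgs2. They were taken by symbol from the 54752 gene IDs of a raw count table of iWAT (inguinal white adipose tissue, a subcutaneous depot at the groin), and all 10 were present. Of these, 9 passed a filter on low counts that left 19736 genes, and Il6 did not. The table holds 16 libraries, 4 for each of 4 genotypes, from mice labelled as females of strain C57BL/6 aged 90 days. WT animals had no mutation. Lepob/+ animals had 1 mutant and 1 normal copy of the leptin gene, the mutant one being the ob allele. SOD1-G93A mice carried a transgene of mutant human SOD1 in many copies, a model of amyotrophic lateral sclerosis, and SOD1-G93A Lepob/+ mice carried both. The study asked what leptin haploinsufficiency changes in fat of the SOD1-G93A line. Both lines were kept on C57BL/6J, and the transgene acts in the whole animal, so that a difference in fat need not start in fat.

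Resident macrophages, mast cells, stromal cells and adipocytes of fat can all release these mediators. TNF and IL-1 beta start inflammatory signalling through NF-kB, which in turn drives many of the other genes here. CCL2 draws monocytes, CCL3 and CCL4 draw monocytes and T cells, and CXCL1 draws neutrophils through CXCR2. The inguinal fat pad also surrounds a lymph node, whose lymphocytes make TNF as well, and a dissected pad may hold more or less of it. In bulk RNA, fewer cells of a type cannot be told apart from less RNA per cell.

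The libraries held 36.8 to 61.9 mega counts (M). Markers of mature adipocytes were abundant throughout (summed level 10600 to 24000 CPM, the count of a gene scaled to its library's total with TMM factors). A lymph node score, the mean log2 CPM of 8 genes typical of a lymph node's stroma and its high endothelial venules (Glycam1, Madcam1, Chst4, Fut7, Ccl19, Cxcl13, Ubd and Cr2), fell into separate ranges, -1.97 to -0.82 in 10 libraries and 3.82 to 4.76 in 6. The 6 high libraries were WT replicates 1 and 2, Lepob/+ replicate 3 and SOD1-G93A replicates 1, 2 and 4, and no SOD1-G93A Lepob/+ library was among them. Lymph node content was therefore uneven across the genotypes. All 12 T cell genes and all 8 B cell genes listed were higher in each high library than in any low one, with summed T cell levels of 648 to 1290 against 15.7 to 33.4 CPM. None of 12 macrophage genes separated the same libraries. Their summed levels were 1690 to 4100 CPM (median 2180) in the high libraries against 1390 to 6750 (median 3040) in the low ones. Lepob/+ replicate 4 was rich in skeletal muscle transcripts (summed level 161000 CPM, at most 4000 in the others). The library labelled SOD1-G93A Lepob/+ replicate 3, a female by its label, held 0 counts of Xist and 1756 of 4 Y chromosome genes. The Lep transcript ran from 202 to 681 CPM in WT, 181 to 687 in Lepob/+, 243 to 993 in SOD1-G93A and 549 to 1840 in SOD1-G93A Lepob/+, and a count per gene does not check a mutation within it. Lep also separated the libraries by lymph node genes, at 181 to 360 CPM in the 6 high ones and at 447 to 1840 in the 10 others. The summed adipocyte markers were lower in the high libraries (median 13800 CPM, range 10600 to 16000) than in the low ones (median 21600, range 11600 to 24000), with overlap. Human SOD1 was not analysed here.

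All members were of low or moderate abundance. Per kilobase of exon, which allows genes to be compared, Ccl2 had the highest median level over the 16 libraries, 4.93 CPM per kb. It was followed by Tnf at 0.887, Nlrp3 at 0.646, Cxcl1 at 0.553, Ccl4 at 0.517, Ccl3 at 0.421, Ptgs2 at 0.339, Il1b at 0.25, Saa3 at 0.156 and Il6 at 0.0376 CPM per kb. From Tnf down to Saa3, neighbours in this order differed by less than the spread of either gene between libraries (SD of log2 CPM). Among the 19736 genes tested, the median CPM of Ccl2 stood at percentile 39.7 and that of Ccl3 at percentile 11. The members differed more in how far they varied. The standard deviation of log2 CPM over the 16 libraries was 2.14 for Saa3, 1.67 for Tnf and 1.42 for Il1b, against 0.42 for Cxcl1 and 0.54 for Nlrp3.

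**Figure D1:**
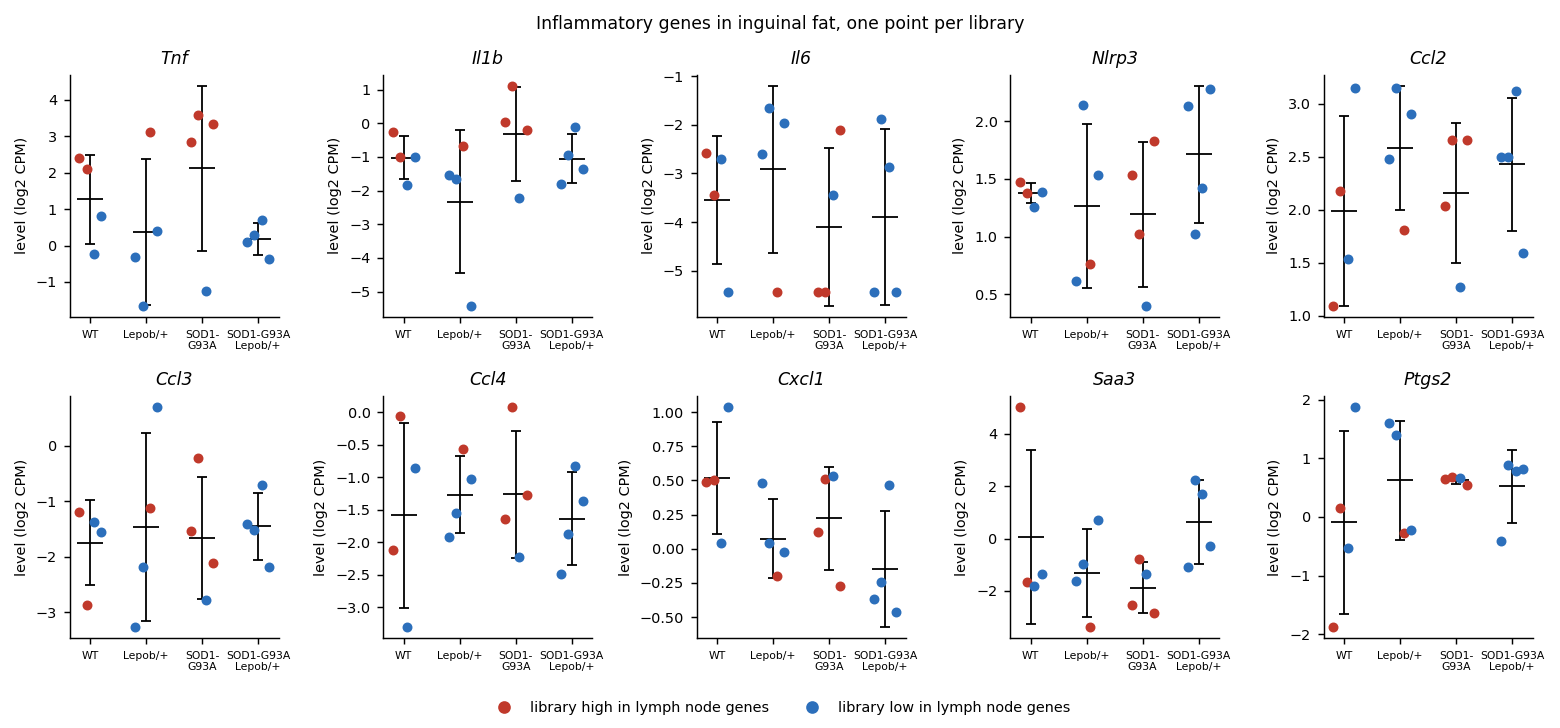
Level of each of the 10 genes (log2 CPM, prior count of 1, so that a library with 0 counts is drawn near the bottom) by genotype, 1 point per library, with the mean and standard deviation of 4 libraries in black. Red points are the 6 libraries high in lymph node genes and blue points the 10 low ones. Red lies above blue throughout only for Tnf, and Saa3 has a single WT library at 32.7 CPM.

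NF-kB acts at the promoters of many inflammatory genes. RefSeq start sites were at hand for 8 members, and the 250 bases before the start are printed for Tnf, which separated the libraries by lymph node genes, for Saa3, which did not, and for Il6 and Cxcl1, which hold the kappaB consensus, the binding motif of NF-kB. Coordinates are of GRCm38.p6. The Tnf window is chr17:35202008-35202257 (minus strand), the Saa3 window chr7:46715677-46715926 (minus strand), the Il6 window chr5:30012864-30013113 (plus strand) and the Cxcl1 window chr5:90890995-90891244 (plus strand). Capitals mark the kappaB consensus on either strand.
Tnf: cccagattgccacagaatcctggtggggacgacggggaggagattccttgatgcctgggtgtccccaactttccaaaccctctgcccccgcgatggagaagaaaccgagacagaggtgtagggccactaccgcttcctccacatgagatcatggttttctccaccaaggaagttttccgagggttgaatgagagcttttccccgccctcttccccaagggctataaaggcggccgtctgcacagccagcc
Saa3: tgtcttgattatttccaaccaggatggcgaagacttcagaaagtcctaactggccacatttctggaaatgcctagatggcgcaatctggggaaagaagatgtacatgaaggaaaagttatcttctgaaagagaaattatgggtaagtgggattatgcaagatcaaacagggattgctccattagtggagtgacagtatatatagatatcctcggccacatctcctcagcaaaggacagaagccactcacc
Il6: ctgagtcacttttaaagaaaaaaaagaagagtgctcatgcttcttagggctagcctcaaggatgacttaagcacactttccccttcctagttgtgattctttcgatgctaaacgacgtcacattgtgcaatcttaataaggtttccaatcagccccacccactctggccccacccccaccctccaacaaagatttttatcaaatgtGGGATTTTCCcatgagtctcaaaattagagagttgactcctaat
Cxcl1: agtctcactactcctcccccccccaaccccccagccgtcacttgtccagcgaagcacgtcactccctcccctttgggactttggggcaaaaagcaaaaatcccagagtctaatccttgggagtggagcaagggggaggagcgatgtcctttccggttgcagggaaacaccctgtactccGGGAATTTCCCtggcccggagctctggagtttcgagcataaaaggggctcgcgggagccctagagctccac

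The match of Il6, GGGATTTTCC, begins 44 bases before the start. Cxcl1 holds GGGAATTTCCC, in which matches on both strands overlap and which begins 71 bases before the start. The third member with a match was Nlrp3, in 1 of its 2 listed promoters (GGGAACCCCC, 186 bases before the start). The consensus occurs in 7.25% of 32851 promoter windows of the same length. The letters of this motif were not found in the windows of Tnf, Il1b, Ccl3, Saa3 and Ptgs2, which says nothing of more distant sites or of variants of the motif.

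Tnf, the gene of the leading inflammatory cytokine (ENSMUSG00000024401, chr17:35199381-35202007, minus strand, GRCm38), stood at 5.26, 4.23, 0.826 and 1.72 CPM in WT replicates 1 to 4. The levels were 0.784, 0.293, 8.53 and 1.30 CPM in Lepob/+ and 7.08, 11.9, 0.397 and 10 CPM in SOD1-G93A. In SOD1-G93A Lepob/+ they were 1.04, 1.20, 1.61 and 0.758 CPM. Within WT, Lepob/+ and SOD1-G93A, the high values are those of the libraries high in lymph node genes. These 6 libraries ran from 4.23 to 11.9 CPM (median 7.8) and the 10 others from 0.293 to 1.72 (median 0.933), with no overlap. Tnf was the only one of the 9 members tested of which this holds, while 11.2% of all genes tested lay above in the same way and 15.5% lay apart in either direction. With genotype in the fit, Tnf rose by 0.55 log2 units per unit of the score (SE 0.084, edgeR quasi-likelihood test, adjusted p = 0.000282). It was called in each of the 16 fits that left out 1 library, with slopes from 0.47 to 0.61 and adjusted p from 0.000124 to 0.00868. The slope rests on the gap between the libraries: within the 10 low libraries it was -0.41 (SE 0.58, adjusted p = 0.776) and within the 6 high ones 0.74 (SE 0.35, adjusted p = 0.699).

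Il1b, the gene of IL-1 beta (ENSMUSG00000027398, chr2:129364570-129371139, minus strand), was at 0.805, 0.478, 0.258 and 0.476 CPM in WT and at 0.322, 0.293, 0.607 and 0 in Lepob/+. It was at 1.00, 2.15, 0.190 and 0.854 CPM in SOD1-G93A and at 0.266, 0.500, 0.907 and 0.365 in SOD1-G93A Lepob/+. The libraries high in lymph node genes tended to the upper end, from 0.478 to 2.15 CPM, but overlapped the others at 0 to 0.907. The slope on the score was 0.30 (SE 0.11, adjusted p = 0.0448), just under the threshold, and 9 of the 16 libraries ended the call when left out (adjusted p from 0.0249 to 0.191 over all 16). The annotation places an antisense gene, Il1bos, over Il1b, and without a stated strand setting their reads may be mixed or left uncounted. Its partner Nlrp3 (ENSMUSG00000032691, chr11:59541568-59566956, plus strand), the sensor of the inflammasome that leads to the cleavage of IL-1 beta, was not called. Nlrp3 was at 2.74, 2.57, 2.38 and 2.59 CPM in WT, at 1.51, 4.37, 1.68 and 2.86 in Lepob/+, at 2.86, 2.01, 1.29 and 3.53 in SOD1-G93A and at 4.34, 2.00, 2.65 and 4.83 in SOD1-G93A Lepob/+. Libraries high and low in lymph node genes overlapped (1.68 to 3.53 against 1.29 to 4.83 CPM), and the slope was 0.017 (SE 0.070, adjusted p = 0.869).

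Il6 (ENSMUSG00000025746, chr5:30013114-30019981, plus strand), the gene of a cytokine that drives acute phase genes in the liver, was close to absent. It had 0 counts in 6 libraries and 3 to 12 counts in the other 10. The highest level was 0.293 CPM, in Lepob/+ replicate 2. A count of 0 allows up to 3 counts, or 0.0518 to 0.0999 CPM depending on the library, so differences of Il6 between genotypes were not detectable at this depth. This limit covers counting error only.

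Ccl2, the gene of the monocyte chemoattractant CCL2 (ENSMUSG00000035385, chr11:82035571-82037453, plus strand), was at 2.1, 4.51, 2.87 and 8.83 CPM in WT and at 5.57, 8.85, 3.47 and 7.43 in Lepob/+. It was at 4.05, 6.30, 2.38 and 6.30 CPM in SOD1-G93A and at 5.65, 5.65, 8.66 and 2.98 in SOD1-G93A Lepob/+. Each genotype spanned much of the range, and libraries high in lymph node genes (2.1 to 6.3 CPM) lay within that of the others (2.38 to 8.85) apart from WT replicate 1, the lowest of all. The slope was -0.059 (SE 0.088, adjusted p = 0.636). A protein coding gene on the opposite strand, Gm17268, overlaps Ccl2.

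Ccl3 and Ccl4, neighbours on chromosome 11 that encode chemokines (ENSMUSG00000000982, chr11:83647844-83649355, minus strand, and ENSMUSG00000018930, chr11:83662584-83664683, plus strand), had at most 48 and 46 counts in a library. Ccl3 was at 0.413, 0.114, 0.362 and 0.317 CPM in WT, at 0.0804, 0.196, 0.437 and 1.60 in Lepob/+, at 0.320, 0.836, 0.121 and 0.208 in SOD1-G93A and at 0.354, 0.325, 0.590 and 0.197 in SOD1-G93A Lepob/+. Its highest value was in Lepob/+ replicate 4, the library rich in muscle transcripts. Ccl4 was at 0.206, 0.933, 0.0775 and 0.529 CPM in WT, at 0.241, 0.318, 0.656 and 0.466 in Lepob/+, at 0.298, 1.04, 0.190 and 0.392 in SOD1-G93A and at 0.155, 0.250, 0.544 and 0.365 in SOD1-G93A Lepob/+. The 3 highest Ccl4 values were in libraries high in lymph node genes, yet the ranges overlapped (0.206 to 1.04 against 0.0775 to 0.544 CPM). Neither slope passed the test, at 0.015 (SE 0.14, adjusted p = 0.944) for Ccl3 and 0.20 (SE 0.10, adjusted p = 0.16) for Ccl4.

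Cxcl1 (ENSMUSG00000029380, chr5:90891241-90893115, plus strand), the gene of a neutrophil chemoattractant, was the steadiest member. It was at 1.38, 1.39, 1.01 and 2.04 CPM in WT, at 1.37, 1.00, 0.850 and 0.966 in Lepob/+, at 1.07, 1.40, 1.42 and 0.808 in SOD1-G93A and at 0.753, 0.824, 1.36 and 0.702 in SOD1-G93A Lepob/+. The highest and lowest libraries differed 2.9-fold, and the slope was -0.047 (SE 0.045, adjusted p = 0.438). Neutrophil markers were sparse, with summed levels of 6.2 to 18.5 CPM for 9 genes, of which Camp and Ngp had no count in any library. Csf3r of the same list was detected, at 5.98 to 12.9 CPM in libraries high in lymph node genes and at 4.73 to 13.4 in the others. Cxcr2, also on that list, lay apart, at 1.88 to 4.95 against 0 to 0.181 CPM. Of the 5 neutrophil genes tested, it was the only 1 to do so, and 4 overlapped.

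Ptgs2, the gene of the inducible cyclooxygenase COX-2 (ENSMUSG00000032487, chr1:150100031-150108227, plus strand), was at 0.248, 1.09, 0.672 and 3.65 CPM in WT and at 3.02, 2.62, 0.802 and 0.833 in Lepob/+. It was at 1.53, 1.58, 1.57 and 1.43 CPM in SOD1-G93A and at 0.731, 1.82, 1.70 and 1.74 in SOD1-G93A Lepob/+. WT and Lepob/+ libraries were spread widely, while the 4 SOD1-G93A libraries lay close together. Libraries high in lymph node genes ran from 0.248 to 1.58 CPM and the others from 0.672 to 3.65, and the slope, -0.19 (SE 0.11, adjusted p = 0.197), was the lowest of the members and did not pass the test.

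Saa3 (ENSMUSG00000040026, chr7:46711998-46715700, minus strand), the serum amyloid A gene that mouse fat and macrophages express, was at 32.7, 0.296, 0.258 and 0.370 CPM in WT and at 0.302, 0.489, 0.0729 and 1.60 in Lepob/+. It was at 0.149, 0.565, 0.363 and 0.115 CPM in SOD1-G93A and at 0.443, 4.72, 3.17 and 0.786 in SOD1-G93A Lepob/+. A single library, WT replicate 1 with 1584 counts, stood far above the others, of which the highest was SOD1-G93A Lepob/+ replicate 2. Saa3 did not separate the libraries by lymph node genes: those high in them ran from 0.0729 to 32.7 CPM and the others from 0.258 to 4.72. The slope was 0.23 (SE 0.32, adjusted p = 0.609), and without WT replicate 1 it was -0.17 (SE 0.16, adjusted p = 0.455). The other serum amyloid genes of the list were nearly silent, Saa1 at 0 to 0.266 CPM, Saa2 at 0 to 0.0693 and Saa4 at 0 to 0.249, in WT replicate 1 at 0 for all of them. Macrophage markers in WT replicate 1 summed to 1800 CPM, near the lower end of all libraries, and mesothelial markers to 2.91 CPM, within the range of the others (1.02 to 3.52). Of 5 mesothelial genes only 2 passed the filter on low counts, so their sum says little of mesothelium.

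**Figure D2:**
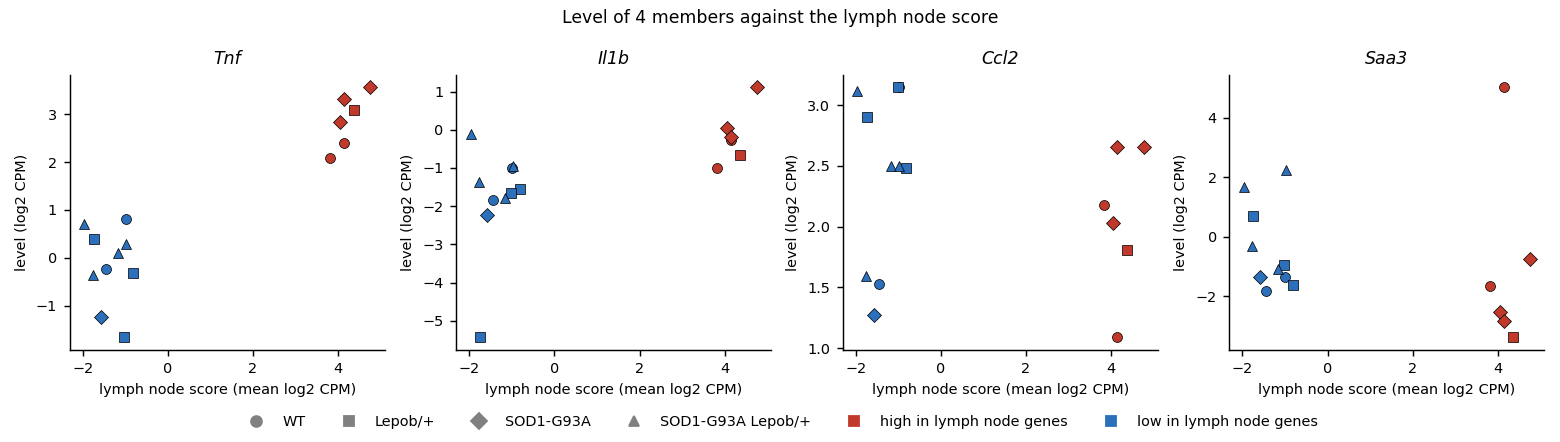
Level of Tnf, Il1b, Ccl2 and Saa3 (log2 CPM, prior count of 1) against the lymph node score (mean log2 CPM of 8 genes), 1 point per library, the shape giving the genotype and the colour the class of library. Tnf is at 4.23 CPM or more in each library at the right and at 1.72 CPM or less in each at the left, while the ranges of Il1b, Ccl2 and Saa3 overlap.

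Of the 9 members tested, the slope on the lymph node score was called for 2, both upward (Tnf and Il1b), and missed for 7. Among all genes tested, 32.8% were called, 18.3% upward and 14.6% downward, so the members were not called more often than other genes. The median slope of the members was 0.017 and that of all genes -0.0089. All 8 adipocyte, 7 progenitor and fibroblast, 6 blood vessel endothelium and 12 macrophage genes listed had a slope below 0. So did 10566 of all 19736 genes. In the order given, 4, 2, 4 and 0 of the listed genes were called downward, beside 14.6% of all genes. All 12 T cell and all 8 B cell genes were called upward, beside 18.3%. Whether the slope of one member differs from that of another was not tested, and the slope of Saa3 (SE 0.32) was estimated less precisely than that of Tnf (SE 0.084).

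The other genes of these pathways, 72 in 7 lists, of which 68 were tested, were described in the same way: 27 were called on the score, 22 upward and 5 downward, beside 32.8% of all genes called, 18.3% upward and 14.6% downward. Of 13 NF-kB genes, all had a slope above 0, beside 9170 of all 19736 genes, and 9 were called upward (median slope 0.097). No difference between lists was tested. Relb (slope 0.25, adjusted p = 3.14e-07), a subunit of the noncanonical pathway, was at 56.7 to 80 CPM in libraries high in lymph node genes and at 20.1 to 29.4 in the others. Rel (0.43, adjusted p = 4.1e-07), a subunit typical of lymphocytes, was at 26 to 58.5 against 5.09 to 9.84 CPM. Ikbkb, which encodes a kinase of the pathway, had a slope of 0.18 (adjusted p = 8.09e-07) and Nfkb2 one of 0.21 (adjusted p = 1.1e-05).

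In the TNF pathway, 4 of 8 genes rose with the score and 1 fell. Birc3 (slope 0.26, adjusted p = 1.21e-06) and Traf2 (0.13, adjusted p = 0.000459), which act at the TNF receptor complex, and Tnfaip3 (0.26, adjusted p = 0.0056), a brake on NF-kB, rose. The gene of the main TNF receptor, Tnfrsf1a, fell (-0.098, adjusted p = 0.00111), at 120 to 166 CPM in libraries high in lymph node genes against 167 to 255 in the others. The gene of the other TNF receptor, Tnfrsf1b, named here after its values were seen, was not called (0.076, SE 0.044, adjusted p = 0.206), at 75.3 to 116 against 38.8 to 104 CPM.

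Of the 12 genes around IL-1 and the inflammasome, 4 were called upward: Il1a, Pycard (slope 0.15, adjusted p = 0.0236), Gsdmd (0.11, adjusted p = 0.0238) and Nek7 (0.27, adjusted p = 0.0461). Nek7 overlapped between libraries high and low in lymph node genes (20.4 to 146 against 23.4 to 197 CPM, mean log2 difference -0.03), and its call was lost when genotype was left out of the fit. Il1a, which encodes IL-1 alpha, had 0 counts in 8 libraries and was at 0.478 to 1.43 CPM in those high in lymph node genes against at most 0.204 in the others (adjusted p = 0.000268). Among 11 further chemokines and receptors, Ccl5, a T cell chemokine, and Cxcr2, the receptor of CXCL1, were called upward and Ccl11, an eosinophil attractant, downward (slope -0.14, adjusted p = 0.0361). Ccl5 was at 106 to 136 CPM in libraries high in lymph node genes and at 2.82 to 6.77 in the others (slope 0.88, adjusted p = 1.95e-08). Cxcr2 was at 1.88 to 4.95 against 0 to 0.181 CPM (adjusted p = 6.16e-05), while its ligand gene Cxcl1 overlapped.

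For the IL-6 pathway, Socs3 (slope 0.099, adjusted p = 0.00818) and Jak1 (0.081, adjusted p = 0.00953) were called upward of 6 genes. The acute phase list had 5 genes tested, among them the receptor genes Tlr2 and Tlr4. Of these 5, Hp, the haptoglobin gene of adipocytes and liver, was called downward (-0.25, adjusted p = 0.00108), at 199 to 425 against 482 to 1340 CPM. Of 13 prostaglandin genes, the receptor gene Ptger4 was called upward (0.13, adjusted p = 0.0333), and the degrading enzyme gene Hpgd (-0.12, adjusted p = 0.0201) and the synthase gene Ptges (-0.13, adjusted p = 0.0241) downward. These lists were drawn up with earlier results of these data known.

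**Figure D3:**
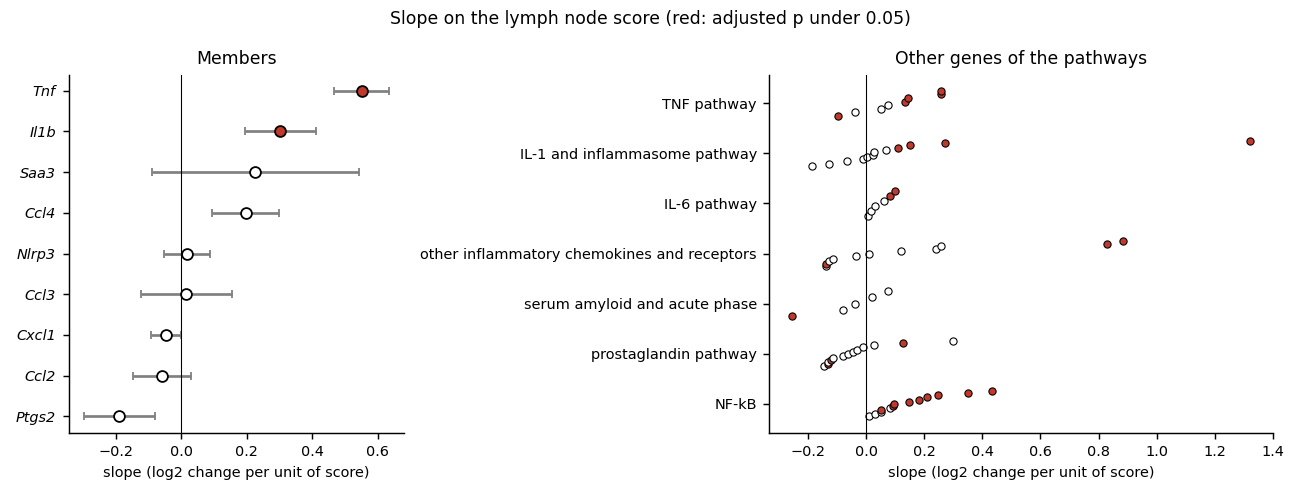
Slope on the lymph node score (log2 change per unit of the score, genotype in the fit) of the 9 members tested, with standard errors (left), and of 68 other genes of their pathways by list (right), with red points at an adjusted p under 0.05. Tnf (0.55) and Il1b (0.30) are the members called, and all 13 NF-kB genes lie above 0, beside 9170 of all 19736 genes tested.

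Between the genotypes, no member passed the test. For Lepob/+ against WT, SOD1-G93A against WT, SOD1-G93A Lepob/+ against SOD1-G93A, SOD1-G93A Lepob/+ against Lepob/+ and the interaction of both mutations, 0 of 9 members had an adjusted p under 0.05 by edgeR, and this held for 0 of all 19736 genes (0%). Nor did any member separate 2 compared genotypes without overlap, as 0.907%, 2.06%, 7.18% and 2.35% of all genes did in the 4 pairs in the order given. At an unadjusted p under 0.05, Saa3 was the only member in Lepob/+ against WT (4.37% of all genes, 0.811% lower like Saa3), in SOD1-G93A against WT (2.56%, 0.917% lower like Saa3) and in the interaction (7.98%, 2.16% above 0 like Saa3). Tnf was the only one in SOD1-G93A Lepob/+ against SOD1-G93A (16.5%, 12.3% lower like Tnf), and none was in SOD1-G93A Lepob/+ against Lepob/+ (8.24%). The comparisons share libraries, so their values are not independent.

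In SOD1-G93A Lepob/+ against SOD1-G93A, Tnf had a log2 fold change of -2.67 (SE 1.03, unadjusted p = 0.0208, adjusted p = 0.261), and of -2.87 (SE 1.20) without the library labelled SOD1-G93A Lepob/+ replicate 3. It averaged 1.15 ± 0.356 CPM (SD, n = 4) against 7.35 ± 5.04, and SOD1-G93A replicate 3, at 0.397, lay below all 4 SOD1-G93A Lepob/+ libraries. Since 3 of 4 SOD1-G93A libraries and none of the others were high in lymph node genes, the score moved with the contrast. With the score as a covariate the difference was 0.39 (SE 0.65, adjusted p = 1), and within the libraries low in lymph node genes, which leave 1 SOD1-G93A library, it was 1.54 (SE 0.82, adjusted p = 1), assuming that this library varies like the others. DESeq2 on the 8 libraries of this contrast called Tnf (-2.68, adjusted p = 0.00733), as it did 5.73% of genes in this direction and 8.27% in either. The remaining Tnf contrasts were 1.28 (SE 0.97) for SOD1-G93A against WT, -0.14 (SE 0.96) for Lepob/+ against WT, -1.24 (SE 0.99) for SOD1-G93A Lepob/+ against Lepob/+ and -2.52 (SE 1.39) for the interaction, with adjusted p of 0.564 or more. Lepob/+ replicate 3, the one library of its genotype high in lymph node genes, moved the last 3 of these most: without it they were -1.95, 0.56 and -0.71.

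Saa3 had the widest contrasts of the members. It was at -4.80 (SE 1.61, unadjusted p = 0.00973, adjusted p = 0.998) in SOD1-G93A against WT and at -3.80 (SE 1.53, adjusted p = 1) in Lepob/+ against WT, with an interaction of 6.72 (SE 2.14, unadjusted p = 0.00717, adjusted p = 0.564). These values rest on WT replicate 1. Without it they were -0.060 (SE 0.95), 0.96 (SE 0.96) and 1.97 (SE 1.28), and DESeq2 on the compared genotypes gave Saa3 no p in the contrasts with WT. In SOD1-G93A Lepob/+ against SOD1-G93A, where the value of Tnf was below 0, Saa3 had a value above 0: it was at 2.28 ± 2.03 CPM (SD, n = 4) in SOD1-G93A Lepob/+ and at 0.298 ± 0.209 in SOD1-G93A, a log2 fold change of 2.92 (SE 1.5, unadjusted p = 0.0714, adjusted p = 0.338). The lowest library of the former, at 0.443 CPM, lay below the highest of the latter, at 0.565. Leaving out the library labelled SOD1-G93A Lepob/+ replicate 3 gave 2.72 (SE 1.60). DESeq2 on the 8 libraries called Saa3 here (2.93, adjusted p = 0.00653), as it did 2.54% of genes upward. Against Lepob/+, Saa3 was at 1.91 (SE 1.44, adjusted p = 0.729) in SOD1-G93A Lepob/+, and at 2.98 without Lepob/+ replicate 4.

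Il1b differed by 1.04 (SE 0.79) in SOD1-G93A against WT, by -0.70 (SE 0.80) in Lepob/+ against WT, by -1.03 (SE 0.79) in SOD1-G93A Lepob/+ against SOD1-G93A, by 0.71 (SE 0.80) in SOD1-G93A Lepob/+ against Lepob/+ and by -0.33 (SE 1.13) in the interaction, with adjusted p of 0.511 or more. Without SOD1-G93A replicate 2, the highest Il1b library, the contrasts of SOD1-G93A against WT and of SOD1-G93A Lepob/+ against SOD1-G93A were 0.42 and -0.41. Without the library labelled SOD1-G93A Lepob/+ replicate 3, that of SOD1-G93A Lepob/+ against Lepob/+ was 0.28, and without Lepob/+ replicate 4, at 0 counts of Il1b, that of Lepob/+ against WT was -0.32. The 6 other members tested, Nlrp3, Ptgs2 and the 4 chemokines, were not called either. They ran from -0.47 (Cxcl1) to 0.91 (Ccl3) in Lepob/+ against WT, from -0.31 (Cxcl1) to 0.29 (Ccl3) in SOD1-G93A against WT, from -0.54 (Ccl4) to 0.51 (Nlrp3) in SOD1-G93A Lepob/+ against SOD1-G93A and from -0.62 (Ccl3) to 0.41 (Nlrp3) in SOD1-G93A Lepob/+ against Lepob/+, with unadjusted p from 0.13 to 0.994. The Lepob/+ values of Ccl3 include replicate 4, rich in muscle transcripts, at 1.60 CPM against 0.0804, 0.196 and 0.437 in the rest of that genotype. Over the 9 members the median log2 fold change was -0.060, 0.12, -0.030 and -0.20 in these contrasts, and over all genes 0.033, 0.021, 0.00048 and -0.062.

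**Figure D4:**
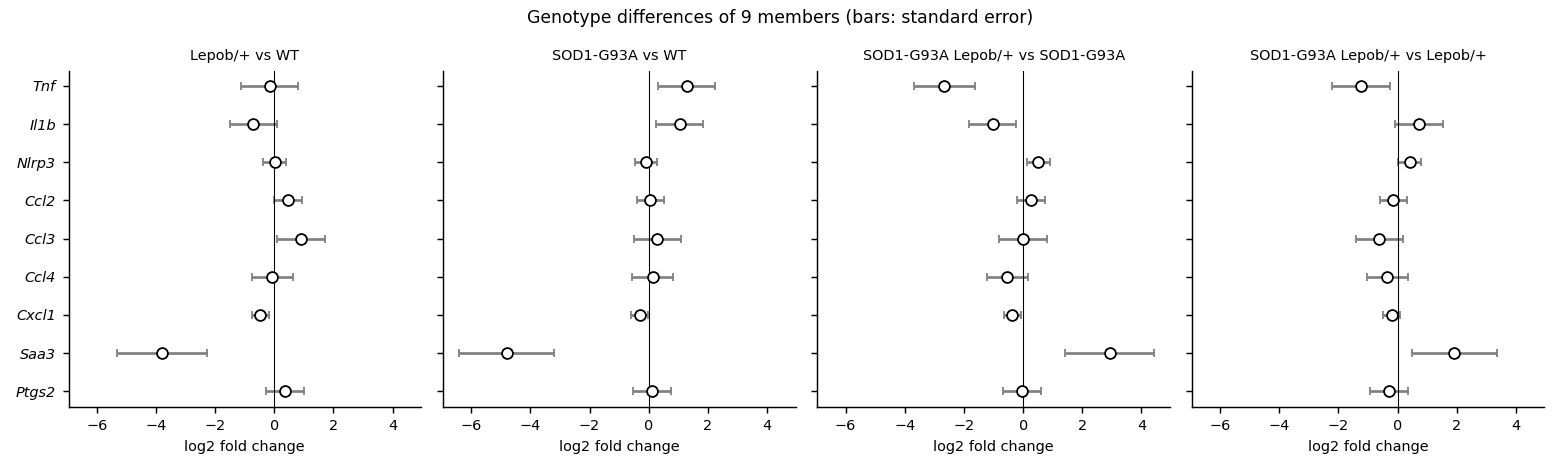
Log2 fold change of the 9 members tested in 4 genotype contrasts, with standard errors. No point passed an adjusted p of 0.05. Saa3 lies at -3.80 and -4.80 in the contrasts with WT, and Tnf at -2.67 in SOD1-G93A Lepob/+ against SOD1-G93A.

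None of the 68 other pathway genes passed the test between genotypes by edgeR either, and at an unadjusted p under 0.05 there were 3 in Lepob/+ against WT, 2 in SOD1-G93A against WT, 17 in SOD1-G93A Lepob/+ against SOD1-G93A and 4 in SOD1-G93A Lepob/+ against Lepob/+. The share of all genes at that threshold was 4.37%, 2.56%, 16.5% and 8.24% in the same order. Il6st, which encodes the signalling receptor gp130 of the IL-6 family, had the smallest p of its list in both contrasts with WT. It was at 125, 150, 105 and 89.5 CPM in WT, at 248, 175, 193 and 187 in Lepob/+ and at 158, 196, 208 and 221 in SOD1-G93A. WT lay below both groups without overlap, at 0.78 (SE 0.20, unadjusted p = 0.00148, adjusted p = 1) for Lepob/+ and 0.74 (SE 0.20, unadjusted p = 0.00216, adjusted p = 0.998) for SOD1-G93A. The ligand gene Il6 was near 0 in the same libraries.

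In the other lists, the genes with the smallest unadjusted p of their list were not called either. For Lepob/+ against WT they were Ripk1, a kinase downstream of the TNF receptor (-0.27, SE 0.20), Il1r1, the IL-1 receptor (0.23, SE 0.20), Ccl7 (0.95, SE 0.61), the acute phase gene Orm1 (-0.60, SE 0.26), Ptges (-0.81, SE 0.34) and Nfkbiz (0.50, SE 0.29), all with an adjusted p of 1. For SOD1-G93A against WT they were Birc3 (0.65, SE 0.45), Gsdmd, the pore protein of pyroptosis (0.29, SE 0.26), Cxcl10, an interferon induced chemokine (1.61, SE 0.71), Tlr4 (-1.58, SE 1), Ptger2 (-0.25, SE 0.20) and Nfkbia (0.47, SE 0.24), all with an adjusted p of 0.998. In SOD1-G93A Lepob/+ against Lepob/+, Orm1 had the smallest p of the 68 pathway genes tested (0.95, SE 0.26, unadjusted p = 0.00296, adjusted p = 0.597). It was at 319, 180, 243 and 266 against 180, 135, 95.6 and 112 CPM. Its product is made in acute phase responses as SAA3 is. In that contrast Ripk1 was at 0.55 (SE 0.20), Pycard at -0.61 (SE 0.36), Jak1 at -0.19 (SE 0.19), Ptges at 0.50 (SE 0.34) and Nfkbiz at -0.67 (SE 0.29). Cxcr2 had the smallest p of the chemokine list there (unadjusted p = 0.0106, adjusted p = 0.597), with 0 counts in all SOD1-G93A Lepob/+ libraries and 0.0402, 0.171, 3.59 and 0 CPM in Lepob/+, and in the interaction (unadjusted p = 0.0148, adjusted p = 0.564). For the interaction, Tnfrsf1a was at 0.53 (SE 0.28), Gsdmd at -0.61 (SE 0.37), Il6st at -0.71 (SE 0.28), Orm1 at 1.24 (SE 0.37), Ptges at 0.70 (SE 0.48) and Nfkbiz at -1.02 (SE 0.41), with an adjusted p of 0.564 or more.

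In SOD1-G93A Lepob/+ against SOD1-G93A, 12 of 13 NF-kB genes had a value below 0, beside 9853 of all 19736 genes. At an unadjusted p under 0.05 were 7 of these 12, against 12.3% of all genes in this direction. Rel was at 6.55, 8.99, 7.41 and 5.93 CPM in SOD1-G93A Lepob/+ and at 34.1, 58.5, 5.09 and 38.8 in SOD1-G93A (-2.24, SE 0.74, adjusted p = 0.261). As with Tnf, SOD1-G93A replicate 3, low in lymph node genes, lay below the SOD1-G93A Lepob/+ libraries. Cxcr2 had 0 counts in the 4 SOD1-G93A Lepob/+ libraries and was at 1.88, 4.95, 0.155 and 2.33 CPM in SOD1-G93A (unadjusted p = 0.00437, adjusted p = 0.261). Birc3 (-1.36, SE 0.45), Gsdmd (-0.58, SE 0.26), Jak1 (-0.42, SE 0.19), Orm1 (0.64, SE 0.26) and the prostacyclin synthase gene Ptgis (0.65, SE 0.41) had the smallest p of their lists, with an adjusted p from 0.261 to 0.426. The lymph node score differs between these genotypes in the same direction, and its part in these values was not tested gene by gene.

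The genes whose log2 CPM followed a member most closely over the 16 libraries differed between Tnf and Saa3. Tnf was matched best by Bend5 (r = 0.966), Runx3 (r = 0.964), a transcription factor gene of T and natural killer cells, and E130215H24Rik (r = 0.963), and in the 10 libraries low in lymph node genes these r were 0.79, 0.80 and 0.72. Runx3 was at 19.1 to 42.1 CPM in the libraries high in lymph node genes and at 0.513 to 3.25 in the others. Saa3 was matched best by Prg4 (r = 0.853), the lubricin gene, Clec4d (r = 0.841), a myeloid lectin gene, and Alox15 (r = 0.818), a lipoxygenase gene of some macrophages. In WT replicate 1, where Saa3 was highest, Prg4 was at 27.3, Clec4d at 3.07 and Alox15 at 58.0 CPM, each its highest value, and in SOD1-G93A Lepob/+ replicate 2, where Saa3 came next, they were at 17.8, 1.57 and 11.3 CPM, each its second highest.

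Among the rest, Il1b was matched best by Trmt6 (r = 0.938), Rbm15b (r = 0.916) and Rrp1b (r = 0.912), and Nlrp3 by Gm12989 (r = 0.858), Fam110a (r = 0.772) and Thoc6 (r = 0.757). Ccl2 was matched best by Ndst2 (r = 0.864), Ostc (r = 0.856) and Tbrg1 (r = 0.84), Ccl3 by Snrpc (r = 0.921), Snrpb (r = 0.88) and Srf (r = 0.849), and Ccl4 by Fem1c (r = 0.849), Ncaph (r = 0.844) and Gm11787 (r = 0.84). Cxcl1 was matched best by Hps6 (r = 0.737), Atp2b4 (r = 0.736) and Zfp64 (r = 0.729), and Ptgs2 by Zc3h12b (r = 0.892), Flrt2 (r = 0.879) and Sema3d (r = 0.877). These r are the highest of 19736 genes over libraries that share lymph node and muscle content, and are given as a description. In Lepob/+ replicate 4, rich in muscle transcripts, Il1b had 0 counts. Trmt6, Rbm15b and Rrp1b were each at their lowest there, at 11.4, 26.9 and 6.06 CPM. Ccl3, Snrpc, Snrpb and Srf were each at their highest there, at 1.60, 42.2, 143 and 92.9 CPM. How far the r rest on that library was not tested.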

How the data were processed

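The authors extracted RNA from iWAT, filtered reads with fastp (Phred score or length under 30), mapped them to mm10 (HISAT2 2.1.0) and summed unique alignments over genes (featureCounts 2.0.2), as the labels and the study's methods state. The deposited values are raw counts, 1 column for each of 16 libraries (36.8 to 61.9 M per library). The methods name a TruSeq stranded kit and the labels a NEBNext kit, and the strand setting and annotation release are not given in the sources used here. Of 54752 IDs, 54723 were paired with a symbol, an exon length and coordinates of GRCm38.

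The tests used edgeR 4.0.16 (R 4.3.3): filterByExpr by genotype (minimum count 10, total 15), TMM, robust quasi-likelihood F tests over all libraries with no covariate, and Benjamini-Hochberg adjustment over all 19736 genes at 0.05. The slope used genotype and score. Log2 CPM used a prior count of 1. DESeq2 1.42.0 was an alternative. The procedure was tested on simulated data. The p-values set each difference against the spread between these libraries. With no record of cages or litters, libraries that share them could not be accounted for. Members, lists and the 2 libraries set aside together were chosen with earlier results of these data known. The genes named are all members, up to 4 called genes of each pathway list or the 1 with the smallest p, and the 3 genes most like each member (Pearson r of log2 CPM). Also named were Saa1, Saa2, Saa4, Lep, Camp, Ngp, Csf3r, Tlr2, Gm17268 and Il1bos, chosen after their values were seen. Promoter windows are from RefSeq (GRCm38.p6).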

Additional observations from a re-analysis of the deposited data

Results flagged for a closer look

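Of 40 groups of 4 libraries, 3 held a value far from the others by Dixon's test, and chance alone gives about 1 in 20. Tnf in SOD1-G93A replicate 3 was at 0.397 CPM, against 7.08 to 11.9 in the other SOD1-G93A libraries, and this is the library of its group that was low in lymph node genes. Saa3 in WT replicate 1 was at 32.7 CPM, against 0.258 to 0.37 in the rest of WT. Ptgs2 in SOD1-G93A Lepob/+ replicate 1 was at 0.731 CPM, against 1.7 to 1.82 in the rest of that genotype.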

How the results depend on the processing

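No member was called between genotypes under any edgeR alternative run, and DESeq2 on all libraries called none either. DESeq2 on the compared genotypes called 2 members in SOD1-G93A Lepob/+ against SOD1-G93A, Saa3 and Tnf. For the other pathway genes in that contrast it called 9, beside 8.27% of all genes. DESeq2 on all libraries called 3 there (Rel, Ccl5 and Cxcr2), and 1 (Cxcr2) against Lepob/+. The share of all genes called by DESeq2 on all libraries is not given here, so those counts are not set against it. On the lymph node score the members called dropped from 2 to 1, Tnf, with no filter on low counts, with a filter of 1 CPM in 4 libraries, which Il1b does not pass, with the T cell list as the score and with the class of library in place of the score. Within the 10 low and within the 6 high libraries 0 members and 0 pathway genes were called. In these fits the score ran only from -1.97 to -0.82 (low libraries) and from 3.82 to 4.76 (high libraries). Why calls changed between settings was not tested.

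Leaving out 1 library gave 1 to 2 members and 17 to 35 pathway genes called on the score, 17 without SOD1-G93A replicate 3. The shares of all genes called in these fits are not given here, so this range is not read as particular to the pathway genes. Il1b lost its call without WT replicates 1 or 3, Lepob/+ replicate 3, any SOD1-G93A replicate, or SOD1-G93A Lepob/+ replicates 2 or 4. Slopes ran from -0.17 to 0.019 for Ccl2, from -0.095 to 0.17 for Ccl3, from -0.17 to 0.66 for Saa3 and from -0.061 to 0.086 for Nlrp3. Contrasts ran from -1.95 to 0.25 for Tnf and from -4.87 to 0.96 for Saa3 in Lepob/+ against WT, from -1.61 to 0.56 for Tnf in SOD1-G93A Lepob/+ against Lepob/+, and in the interaction from -2.92 to -0.71 for Tnf and from -0.76 to 0.30 for Il1b. Il1b ran from -1.25 to -0.32 in Lepob/+ against WT, from 0.42 to 1.37 in SOD1-G93A against WT, from -1.47 to -0.41 in SOD1-G93A Lepob/+ against SOD1-G93A and from 0.28 to 1.26 against Lepob/+. Without both Lepob/+ replicate 4 and the library labelled SOD1-G93A Lepob/+ replicate 3, Tnf in Lepob/+ against WT was 0.080 and Il1b in SOD1-G93A Lepob/+ against Lepob/+ was -0.11.

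With the lymph node score as a covariate, Tnf turned to 0.39 in SOD1-G93A Lepob/+ against SOD1-G93A, 0.58 against Lepob/+ and 0.47 in the interaction, and Il1b to 0.61 in the first and 1.09 in the last. With the class of library as a factor these were 0.25, 0.44 and 0.32 for Tnf and 0.37 and 0.79 for Il1b. Within the low libraries, Tnf was -1.69 in SOD1-G93A against WT, 1.54 in SOD1-G93A Lepob/+ against SOD1-G93A and 0.56 against Lepob/+, Il1b was -0.95 and 1.42 in the first pair of these, and Saa3 was 1.29 in Lepob/+ against WT and 0.19 in SOD1-G93A against WT. Within the high ones, Tnf was 0.82 in Lepob/+ against WT.

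Slopes turned without the genotype term for Ccl3 (-0.019), Cxcl1 (0.0042) and Nlrp3 (-0.035). Within the low libraries they were -0.41 for Tnf, 0.053 for Ccl2, -1.99 for Ccl3, -0.74 for Ccl4, 0.027 for Cxcl1, -0.47 for Saa3, 0.93 for Ptgs2 and -0.27 for Nlrp3, and within the high ones 0.60 for Cxcl1 and -0.83 for Nlrp3. Of 794 values of the 6 other members between genotypes, 80 changed sign and 0 were called.

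Replicate numbers did not pair the libraries: among 24 same-numbered pairs, the deviations correlated above 0.1 in 5 and below -0.1 in 8, and 1 library correlated best with its own number. With the number as a block, 1 member (Tnf) was called on the score, Il1b having an adjusted p of 0.109, and 27 pathway genes were called, with Nek7, Ptger4, Adam17 and Ptges lost and Jak2, Ptgis, Orm1 and Nfkbiz gained, and 0 calls between genotypes. The share of all genes called on the score with this block is not given here either. At 0 to 95 counts for Il1b and 0 to 12 for Il6, depth limits what can be seen of the rarer members.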

Other observations

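Tlr4 and Nek7, both partners of the genes described (a receptor that turns on Tnf and Il1b, and a protein that NLRP3 binds), were chosen after their values were seen. Tlr4 was at 14.7 to 30.1 CPM in 9 libraries and at 1.04 to 3.72 in 7, with nothing between. The 9 were 3 WT, 3 Lepob/+, 1 SOD1-G93A and 2 SOD1-G93A Lepob/+ libraries, and 3 of them were high in lymph node genes. Nek7 was at 55.3 to 197 CPM in 11 libraries and at 20.4 to 26 in 5. The 11 were 2 WT, 4 Lepob/+, 1 SOD1-G93A and 4 SOD1-G93A Lepob/+ libraries, and 4 of them were high in lymph node genes. A difference of this size within a genotype was not tested, and neither gap coincides with that of Tnf.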
